A study of Mus musculus with 3 samples.

Results

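Effector-type regulatory T cells (Tregs) of mouse dermis were set beside those of lymph node, with 1 single-cell RNA library per tissue. A cell was a member when UMIs (unique molecular identifiers, which count captured RNA molecules) of at least 2 of the 6 genes Klrg1, Gzmb, Ccr2, Il1rl1, Itgae and S100a4 were left after each cell was thinned at random to 1500 UMIs. Of 10031 gated cells of both libraries with that depth, 1260 were members: 665 among 815 cells of dermis and 595 among 9216 of lymph node. The other 150 dermal and 8621 lymph node cells served as the comparison within each library.

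Both libraries came from adult mice of the Foxp3 reporter strain FOXP3-EGFP (C.Cg-Foxp3tm2Tch/J), in which green fluorescence marks cells that express Foxp3. Skin layers were parted with thermolysin and the dermis was digested with collagenase, whereas lymph node was mashed, and cells positive for GFP, CD4, CD3 and CD45 were sorted. The 10x 3' kit was v3 for dermis but v2 for lymph node. Tissue, tissue handling, kit and any difference between the animals therefore cannot be told apart in any dermis against lymph node value. How many animals were used, and their sex and exact age, is not stated in the sources used. With 1 library per tissue, cells were not replicates and no test was run. Every interval below is a 95% interval of counting error only.

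Tregs, a CD4 T cell lineage specified by the transcription factor Foxp3, hold back other immune cells. Resting Tregs circulate through lymphoid organs with the help of Ccr7 and other homing molecules. After activation they can become effector Tregs, which give these up, express Icos, Maf and Prdm1, and enter tissues such as skin. Of the rule markers, Klrg1 is an inhibitory receptor of antigen-experienced lymphocytes, Gzmb a granule protease, Ccr2 a chemokine receptor, Il1rl1 the receptor for IL-33, Itgae the CD103 chain that binds E-cadherin, and S100a4 a calcium-binding protein of motile cells.

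The rule took 81.6% of the dermal library (interval 78.8 to 84.2%) but 6.46% of the lymph node library (5.96 to 6.98%). This share is set by the rule and is a description. In dermis 9 cells held none of the 6 markers and 141 held 1, while in lymph node 7519 held none and 1102 held 1. Cells just inside the limit, with 2 markers, numbered 300 in dermis and 349 in lymph node. In dermis 133 of the 141 cells just outside it held S100a4 alone. In lymph node 609 of the 1102 held S100a4 alone and 309 held Itgae alone. Among cells with 2 markers, Itgae with S100a4 was the pair in 109 dermal and 112 lymph node cells, and Ccr2 with S100a4 in 88 and 99.

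**Figure D1:**
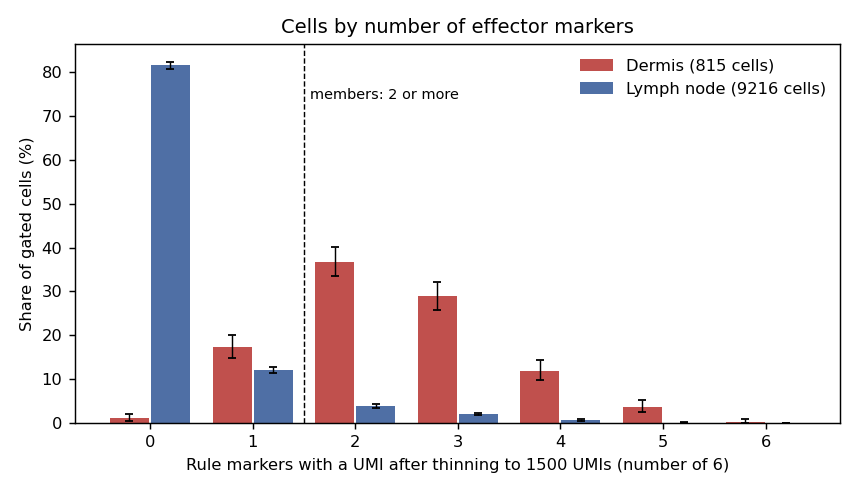
Share of gated cells (percent, y axis) by the number of the 6 rule markers with a UMI after thinning to 1500 UMIs (x axis), for 815 dermal and 9216 lymph node cells, with exact 95% intervals as error bars; members lie to the right of the dashed line. Most dermal cells hold 2 or more markers, and 81.6% of lymph node cells hold none.

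The 6 markers lie on different chromosomes (mm10, GENCODE vM21): Klrg1 on chromosome 6 (122270596 to 122282882), Gzmb on 14 (56258838 to 56262260), Ccr2 on 9 (124101950 to 124113557), Il1rl1 on 1 (40429570 to 40465415), Itgae on 11 (73090583 to 73147446) and S100a4 on 3 (90603771 to 90606045). After thinning, S100a4 was found in 98.4% of dermal and 90.8% of lymph node members. Itgae was found in 56.5% and 51.4%, Ccr2 in 50.8% and 48.9%, and Klrg1 in 28.3% and 22.7%. Gzmb was the marker found in a smaller share of dermal members (27.4%) than of lymph node members (31.8%). Il1rl1 showed the widest relative gap, with 18.1% against 8.40%. Barcodes that passed the quality filter with 0 UMIs of the 4 T cell genes were few, and what cells they were is not known. Among 26 such dermal barcodes (median 1249.5 UMIs) 53.8% held S100a4 and 30.8% Ccr2, and among 22 in lymph node (median 2184 UMIs) 9.09% and 0 did.

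The UMIs that the thinning did not draw had no say in the rule, though they came from the same cells. In these UMIs the level of each marker, in CPM (UMIs scaled so that every group has an equal total), was higher in dermal than in lymph node members. Klrg1 was at 267 CPM against 180, Gzmb at 514 against 375, Ccr2 at 457 against 303 and Itgae at 443 against 247. Il1rl1 was at 156 against 43.3 CPM and S100a4 at 4734 against 1445. The dermal cells with a single marker, which the rule left out, stood at 300 CPM for Itgae (interval 255 to 351), a value that overlaps that of lymph node members at 247 CPM (223 to 272). For S100a4 and Il1rl1 these left-out dermal cells were above lymph node members, at 4581 and 92.3 CPM, and for Gzmb below them, at 90.4 CPM. For Klrg1 (137 CPM, 107 to 172) and Ccr2 (256 CPM, 214 to 303) their intervals overlapped those of lymph node members (160 to 202 and 277 to 331). In lymph node the single-marker cells lay far below the members for all 6, between 16.0 CPM for Il1rl1 and 508 CPM for S100a4.

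**Figure D2:**
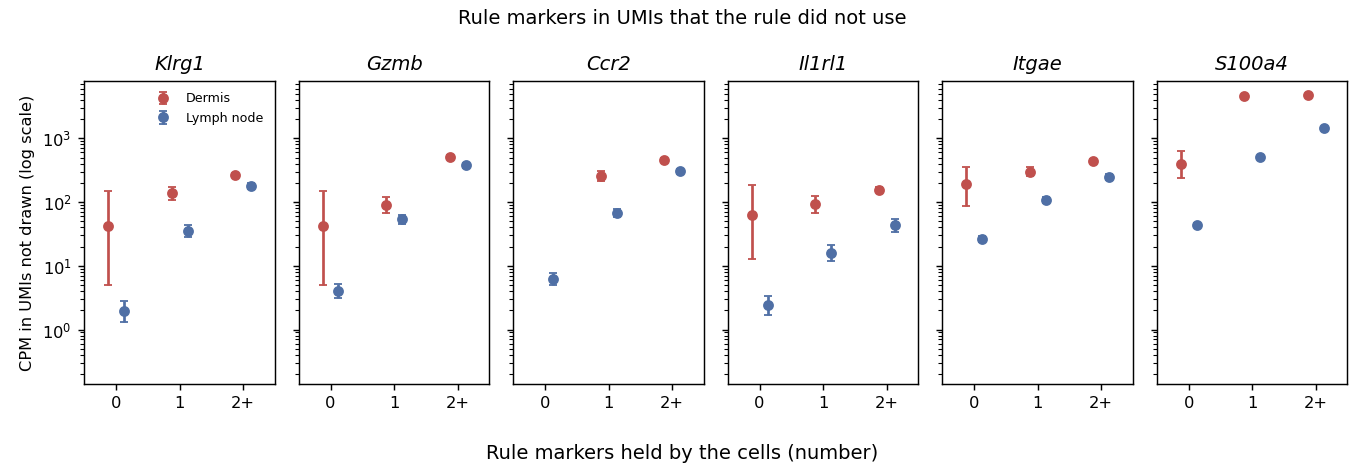
Level of each rule marker in UMIs that the thinning did not draw (CPM, log scale, y axis) in cells with 0, 1 or at least 2 rule markers (x axis), with exact 95% Poisson intervals as bars. Ccr2 in dermal cells with no marker (9 cells) was 0 and is not drawn; the lymph node levels climb steeply with the number of markers, and S100a4 in single-marker dermal cells (4581 CPM) lies close to that of dermal members (4734 CPM).

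The effector label was checked on 15 effector genes outside the rule and on 9 genes of resting T cells. In lymph node all 15 effector genes were higher in members than in the other cells, with a median ratio of 3.06-fold, and all 9 resting genes were lower, with a median of 2.44-fold. In dermis 11 of the 15 were higher, with a median of only 1.13-fold, and all 9 resting genes were lower, with a median of 2.25-fold. The dermal cells that the rule left out also carried the effector genes: their summed level was 7278 CPM, against 8443 in dermal members, 5479 in lymph node members and 2347 in other lymph node cells. A Foxp3 UMI was present, after thinning, in 20.8% of dermal members (17.7 to 24.0%) and in 3.87% of lymph node members (2.47 to 5.74%). At full depth 52 of 595 lymph node members held a Foxp3 UMI, fewer than the 128 that held one of Il2, a cytokine Tregs do not usually make. The Treg name of the lymph node members therefore rests on the sort for GFP. The Foxp3 and Il2 UMIs alone do not bear it out for most of them. Other genes were seen more widely: after thinning, Ikzf2 was in 77.5% and Icos in 69.4% of lymph node members. In other lymph node cells the shares were 51.7% and 15.1%. A core Treg list of 17 genes summed to 7197 CPM in lymph node members, 4602 CPM in other lymph node cells and 8732 CPM in dermal members. What these sums say of Treg identity was not tested.

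Marker lists of other cell types were summed in members. The highest of the 10 sums was that of dendritic and Langerhans cells, at 804 CPM in dermal and 789 CPM in lymph node members, against 738 and 324 CPM in the other cells. Most of it was Cd74 (366 and 466 CPM in members) and Cst3 (286 and 227 CPM), and 4 and 5 of its 11 genes were at 0; its part in the results was not tested. Summed keratinocyte markers were at 90.8 CPM in dermal and 33.9 CPM in lymph node members, with 4 and 7 of 12 genes at 0, and in no member did markers of 10 other cell types exceed 3% of UMIs. Innate lymphoid cell markers summed to 1573 and 521 CPM; nearly all of this was Rora, Gata3 and Il7r, genes that effector Tregs also express. Of the 12 genes of that list 3 were at 0 in dermal and 5 in lymph node members, and their part in the results for Rora and Gata3 was not tested. Members had a median of 4944 UMIs and 1740 genes in dermis and 3200 UMIs and 1373 genes in lymph node, with 4.44% and 2.17% mitochondrial UMIs. No cell barcode was shared between dermal and lymph node gated cells. Their kits differ, so this count cannot show whether cells of these libraries were mixed. In dermis 27 gated cells, 10 of them members, had a barcode that also occurs in the epidermal library of the series. A UMI of a Y-linked gene was seen in 8.12% of dermal members and 10.7% of other dermal cells. It was seen in 0 of the 595 lymph node members and 0 of the 8621 other lymph node cells. The sex of the animals may thus differ in part between the libraries. A UMI of Xist, a transcript of female cells, was seen in 87.5% of dermal and 93.1% of lymph node members. Xist but no Y-linked gene was seen in 568 dermal and 554 lymph node members. Between these, 577 genes were higher in dermis and 343 lower by the 2-fold limit given below. Between all members the counts were 574 and 343. The part of sex in the results was not otherwise tested.

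The first comparison asked what went with the rule markers inside the lymph node, where members and other cells shared the library and the kit. A gene was counted as different when the ratio of summed CPM was at least 2-fold with at least 50 CPM in the higher group, and the 6 rule markers were left out of every count. The members were chosen from these same cells, so these values describe the members and test nothing. Of 2787 genes 150 were higher in members (5.38%) and 27 lower (0.969%), 6.35% in all. Among the genes with the highest ratios were Ccr10, a skin-homing chemokine receptor, Fgl2, a secreted suppressive fibrinogen-like protein, and Ctla2a, a cysteine protease inhibitor. Ccr10 was at 96.0 CPM in members and 4.46 CPM in the other cells, a 21.5-fold difference (17.4 to 26.8). Fgl2 was at 278 against 15.2 CPM (18.2-fold, 16.2 to 20.5) and Ctla2a at 139 against 10.3 CPM (13.5-fold). The S100, annexin and actin list had 12 of 18 genes higher and none lower, with S100a6 at 2417 against 213 CPM. The effector list had 9 of its 17 measured genes higher, among them Icos (898 against 150 CPM), Maf (372 against 57.4 CPM) and Id2 (186 against 26.7 CPM).

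Genes of resting and recirculating cells were lower in lymph node members. Of 18 measured genes of the resting and homing list 16 reached 50 CPM. In members 8 were lower and 1, Il7r, the receptor chain for IL-7, was higher. Of all genes 0.969% were lower and 5.38% higher. Bcl2, a survival factor, was 4.55-fold lower in members (4.04 to 5.14), Ccr7 3.13-fold lower and Igfbp4 5.47-fold lower. The immediate early and stress list, of transcripts that are induced within minutes of a stimulus, had 0 of its 17 measured genes counted as different in lymph node. Of these 13 reached 50 CPM, and 6.35% of all genes were counted. The median log2 ratio of the list was 0.32.

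The same comparison within dermis gave few differences. Of 2940 genes 9 were higher in dermal members (0.306%) and 4 lower (0.136%), 0.442% in all. Ccl5, a chemokine of activated T cells, was at 97.8 CPM in members and 29.0 CPM in the other dermal cells (3.37-fold, 2.21 to 5.38), and Ccr3, a receptor for eotaxins, at 80.0 against 29.0 CPM (2.76-fold, 1.80 to 4.42). Nkg7, a granule membrane protein, was at 89.1 against 44.2 CPM. Hspa1b was at 224 against 78.2 CPM, but 5 cells held 49.5% of its UMIs in members. Stmn1, a microtubule regulator of dividing cells, was lower in members, at 29.1 against 84.5 CPM. None of 19 measured effector genes was counted in either direction in dermis. Icos was at 1494 CPM in dermal members and 1197 CPM in the other dermal cells, Ctla4 at 2309 and 2040 CPM, and Ccr10 at 244 and 232 CPM. With the 150 other cells as denominator the counts rest on few UMIs: another random thinning gave 2 higher genes and yet another 15 lower ones.

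Levels by number of markers showed the same contrast between the libraries. In lymph node Icos was at 105 CPM in cells with no marker, 408 with 1, 836 with 2 and 993 with 3 or more. Fgl2 went from 8.36 to 54.7, 228 and 353 CPM over the same groups. In dermis Icos was at 392 CPM in the 9 cells with no marker. It was already at 1265 CPM in dermal cells with 1 marker and at 1382 and 1580 CPM in the groups above. Fgl2 in dermis was at 147 CPM with no marker and at 272, 316 and 340 CPM with 1, 2 and 3 or more. Its level in lymph node cells with 3 or more markers (interval 317 to 392) overlapped that of dermal cells with as many (315 to 365). Rora, by contrast, was at 158 CPM in lymph node cells with 3 or more markers and at 628 CPM in dermal cells with 1. The 9 dermal cells without a marker held 9 of the 12 Bcl2 UMIs of the other dermal cells, a level of 147 CPM (67.3 to 279), while dermal cells with 1 marker were at 4.10 CPM, near the members at 6.19 CPM.

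**Figure D3:**
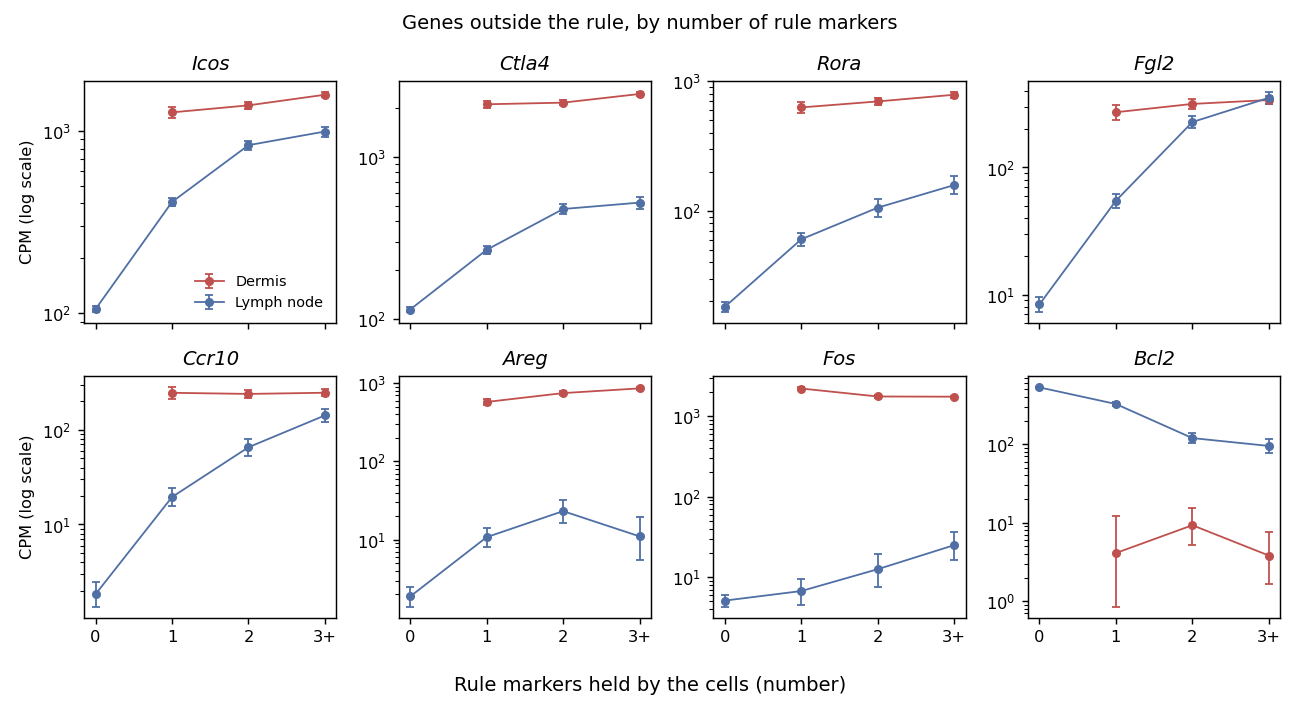
Level of 8 genes that the rule did not use (CPM, log scale, y axis) in cells with 0, 1, 2 and 3 or more rule markers (x axis) of dermis and lymph node, with exact 95% Poisson intervals as bars. The 9 dermal cells with no marker are left out. Icos, Ctla4, Rora, Fgl2 and Ccr10 climb with the number of markers in lymph node, drawn from 0 markers up. In dermis, drawn from 1 marker up, they change little. Fgl2 meets the dermal level, and Areg, Fos and Bcl2 stay apart.

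Dermal members were then compared with lymph node members directly. Of 3325 genes 574 were higher in dermal members (17.3%) and 343 lower (10.3%), 27.6% in all, with a median log2 ratio over these genes of -0.13. Among the other cells of both libraries, 755 of 3117 genes were higher in dermis (24.2%) and 295 lower (9.46%), 33.7% in all, with a median log2 ratio of 0.09. Scaling moved the split among members. Of all genes counted, 62.6% were higher in dermal members with CPM, 70.1% with TMM factors, and 49.96% (608 higher, 609 lower) when mitochondrial and ribosomal protein genes were left out of the totals, which moved the median log2 ratio to -0.24.

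Effector genes were closer between dermal and lymph node members than between the other cells. This contrast is partly set by the rule and is a description. Of the 8621 other lymph node cells 7519 held no rule marker, against 9 of the 150 other dermal cells. The effector list had a median log2 ratio of 0.96 between members and of 2.99 between the other cells. Of its 19 measured genes 16 reached 50 CPM in members, and 9 were higher in dermis and 0 lower. Of all genes 17.3% were higher and 10.3% lower. Between the other cells 13 were higher, against 24.2% of all genes. Icos, a costimulatory receptor, was at 1494 CPM in dermal and 898 CPM in lymph node members (1.66-fold, 1.58 to 1.75) and 7.97-fold apart in the other cells. Maf and Prdm1, transcription factors of the effector state, were 1.89-fold and 1.94-fold higher in dermal members and 10.9-fold and 14.9-fold higher in the other dermal cells. Gata3, a factor of type 2 programmes that is also expressed by skin Tregs, was at 388 against 174 CPM (2.23-fold, 2.003 to 2.49). Rora stayed further apart, at 748 against 127 CPM (5.90-fold, 5.25 to 6.65). Tnfrsf9 (224 against 274 CPM) and Batf (119 against 207 CPM) were below 1 in ratio without reaching 2-fold.

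Areg, the growth factor amphiregulin of tissue Tregs, had the widest gap of the effector list (mm10 chromosome 5, 91139599 to 91148432). It was at 810 CPM in dermal members, 549 CPM in other dermal cells, 18.3 CPM in lymph node members and 3.20 CPM in other lymph node cells. Dermal members exceeded lymph node members 44.2-fold (33.1 to 60.5), and 5 cells held 54.3% of the 46 Areg UMIs of lymph node members. An Areg UMI was seen in 386 of 665 dermal members and in 23 of 595 lymph node members at full depth. Il10, a suppressive cytokine, was at 102 against 14.7 CPM (6.95-fold, 4.95 to 10.0), with 81.1% of the lymph node UMIs in 5 cells.

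The promoter of Areg is shown with that of Dusp1, a phosphatase gene of the immediate early list with a like gap (2298 CPM in dermal and 70.1 CPM in lymph node members, 32.8-fold, 28.2 to 38.3). Both genes were picked after their values were seen because each holds the letters TGACGTCA, the cAMP response element, which reads the same on both strands; they are in capitals. The 250 bases before the start site are from the RefSeq promoter table (GRCm38.p6, the sequence of mm10), on the plus strand at chr5:91139349-91139598 for Areg and the minus strand at chr17:26508473-26508722 for Dusp1, 5' to 3'.
Areg: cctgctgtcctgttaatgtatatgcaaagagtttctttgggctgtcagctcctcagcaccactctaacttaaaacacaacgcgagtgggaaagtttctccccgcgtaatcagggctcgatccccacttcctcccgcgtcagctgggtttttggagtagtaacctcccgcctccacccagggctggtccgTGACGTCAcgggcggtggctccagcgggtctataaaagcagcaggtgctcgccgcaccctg
Dusp1: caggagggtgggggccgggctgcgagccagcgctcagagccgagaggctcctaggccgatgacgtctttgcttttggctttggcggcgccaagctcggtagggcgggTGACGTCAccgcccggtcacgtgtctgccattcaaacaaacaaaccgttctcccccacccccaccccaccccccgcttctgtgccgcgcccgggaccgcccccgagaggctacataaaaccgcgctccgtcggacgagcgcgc
The letters begin 61 bases before the Areg start site and 143 bases before that of Dusp1. They occur in 508 of all 32851 promoters of that length (1.55%). Counted by gene, in any promoter of the gene, they occur in 1 of 16 matched genes of the effector list. In the immediate early and stress list they occur in 2 of 20 matched genes. Shares by gene and by promoter are not directly comparable. These matches describe the sequence and say nothing of which factor is bound.

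The core Treg list had genes on both sides. Of its 17 genes 14 reached 50 CPM, and 2 were higher in dermal members and 4 lower. Over all genes 17.3% were higher and 10.3% lower. The median log2 ratio of the list was -0.29, against -0.13 over all genes, and turned positive in 2 of 38 alternatives. Foxp3 itself was at 151 CPM in dermal members and 23.1 CPM in lymph node members (6.55-fold, 4.99 to 8.74), and the other cells differed alike, at 129 and 21.7 CPM. Ctla4, an inhibitory receptor, was at 2309 against 494 CPM (4.67-fold, 4.40 to 4.96). Il2ra, the high-affinity IL-2 receptor chain, was only 1.49-fold higher. The 4 genes lower in dermal members were Izumo1r (folate receptor 4), Nt5e (the ectoenzyme CD73), Nrp1 (neuropilin) and Il2rb. Izumo1r was at 21.6 CPM in dermal members and 723 CPM in lymph node members, 33.6-fold lower (26.8 to 42.5), and the other cells also differed, at 44.2 and 891 CPM.

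Chemokine receptor genes lay on both sides between the members. Of 15 measured chemokine and chemoattractant receptors 12 reached the 50 CPM that a count needs. In dermal members 5 were higher (among them Ccr8, Ccr10, Cxcr4 and Gpr55) and 2 lower (Cxcr3 and S1pr4). Of all genes 17.3% were higher and 10.3% lower. The median log2 ratio of the list was 0.71 against 2.95 in the other cells. Cxcr4, the receptor for CXCL12, was at 286 CPM in dermal members, 279 CPM in other dermal cells, and 10.8 and 8.05 CPM in the lymph node groups. Ccr8, a receptor of skin Tregs, was at 51.4 against 5.97 CPM (8.61-fold, 5.09 to 15.7), and Ccr10 at 244 against 96.0 CPM (2.54-fold, 2.20 to 2.94). The order of Ccr10 turned when members were narrowed to those with both Klrg1 and Gzmb (37 dermal and 41 lymph node cells), where its log2 ratio was -0.50. Cxcr6 was at 25.1 CPM in dermal and 31.5 CPM in lymph node members, a ratio whose interval included 1, while in the other cells dermis was 12.9-fold higher. Cxcr3, a receptor of type 1 responses, was lower in dermal members (44.4 against 115 CPM, 2.60-fold, 2.14 to 3.17) and higher in the other dermal cells (64.3 against 27.5 CPM).

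Genes of resting cells were lower in dermal members even though lymph node members already had less of them than other lymph node cells. Of 17 measured genes of the resting and homing list 12 reached 50 CPM. In dermal members 7 were lower and 2 higher, against 10.3% and 17.3% of all genes. The median log2 ratio of the list was -2.21, close to the -2.50 of the other cells. Bcl2 was at 6.19 CPM in dermal members and 110 CPM in lymph node members (17.8-fold lower, 11.6 to 28.5). Tcf7, a factor of naive and memory T cells, had no UMI in dermal members and was at 39.0 CPM in lymph node members, at least 48.3-fold lower against a floor of 3 counts over the group. Ccr7 did not follow, at 72.2 and 75.7 CPM in the members, and was 3.07-fold lower in dermis among the other cells. S1pr1, which lets T cells leave tissue, was 1.95-fold lower, whereas Klf2, which drives S1pr1, was 2.33-fold higher in dermal members.

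Immediate early and stress transcripts gave the largest gap of the 21 lists. Of 23 measured genes 21 reached 50 CPM. In dermal members 19 were higher than in lymph node members and 0 lower, against 17.3% and 10.3% of all genes. The median log2 ratio was 3.39, and the other cells gave 4.19. Fos was at 1750 CPM in dermal members and 2185 CPM in the other dermal cells, against 17.5 and 5.36 CPM in lymph node. Fosb had 2551 UMIs in dermal members and 4 in lymph node members (687 against 1.59 CPM, 431-fold, 168 to 1584). Atf3, Hspa1a and Hspa1b had no UMI in lymph node members, and dermal levels of 61.7, 144 and 224 CPM were at least 51.6-fold, 120-fold and 187-fold higher against the floor. Hspa1a and Hspa1b are near-identical copies whose reads can be assigned to either. Within dermis members and other cells were alike for the list, with a median log2 ratio of -0.04.

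Genes downstream of the antigen receptor and NF-kB, and genes linked to residence in tissue, were also higher in dermal members. Of 19 measured receptor and NF-kB genes 15 reached 50 CPM. In dermal members 11 were higher and 0 lower, against 17.3% and 10.3% of all genes. The list medians were 1.40 for members and 1.68 for the other cells. Tnfaip3, which limits NF-kB, was at 729 against 26.3 CPM (27.7-fold, 21.7 to 36.0) and Nr4a1, an early receptor-induced factor, at 785 against 60.5 CPM. Residency genes had medians of 1.20 for members and 3.07 for the other cells. Of 16 measured residency genes 12 reached 50 CPM, and 8 of these were higher in dermal members and 0 lower. Among them was Cd69, which holds T cells in tissue, at 986 against 102 CPM (9.64-fold, 8.49 to 10.98) and in the other cells at 989 against 90.8 CPM. Its level in dermal cells outside the rule was that of dermal members within counting error.

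Of 16 measured genes that activate TGF-beta or carry its signal, 10 reached the 50 CPM that a count needs. Of these 7 were higher in dermal members and 0 lower, against 17.3% and 10.3% of all genes. Itgav and Itgb8, the chains of an integrin that frees active TGF-beta, were at 258 against 29.5 CPM (8.75-fold, 6.91 to 11.3) and 75.1 against 30.7 CPM (2.45-fold, 1.90 to 3.20). Smad7, an inhibitor within the pathway, was at 597 against 66.9 CPM, while Tgfb1 was at 311 and 291 CPM.

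The S100, annexin and actin list, which stood out within lymph node, had a smaller median between members (0.39) than between other cells (2.05). Of its 18 genes 6 were higher in dermal members and 0 lower, against 17.3% and 10.3% of all genes. S100a6 was at 5889 against 2417 CPM in members and 4614 against 213 CPM in the other cells. Lmna, which encodes nuclear lamins A and C, had the widest ratio of the list, at 2116 against 80.1 CPM in members (26.4-fold, 23.0 to 30.6). Secreted mediators had medians of 0.25 and 2.33. That small median for members turned negative in 3 of 38 alternatives. Fgl2 was at 329 against 278 CPM in members (1.19-fold, 1.08 to 1.30) and 17.2-fold higher in dermis among the other cells.

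Interferon-response genes were lower in dermal members. Of 21 measured interferon genes 18 reached 50 CPM, and 9 were lower and 0 higher, against 10.3% and 17.3% of all genes. The median log2 ratio was -1.16, and the other cells gave -1.01. Iigp1, an interferon-induced GTPase, was at 12.1 against 110 CPM (9.10-fold lower, 6.63 to 12.8), and Ifit1 at 4.04 against 63.3 CPM. Of 19 measured proliferation genes 2, Stmn1 and Rrm2, were lower and 17 were not counted. Only 6 of the 19 reached the 50 CPM that a count needs, and 10.3% of all genes at that limit were lower. The median log2 ratio of the list was -1.67 for members and 0.22 for the other cells. Mki67, the usual marker of cycling cells, differed little, at 21.6 CPM in dermal and 30.7 CPM in lymph node members.

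Of the 21 lists, 15 had a smaller median ratio in size between members than between other cells and 6 a larger one. Of all genes 27.6% differed between members and 33.7% between other cells. This contrast is partly set by the rule, since 7519 of 8621 other lymph node cells held no marker against 9 of 150 other dermal cells. In 6 lists the median was smaller by at least 1 on the log2 scale.

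**Figure D4:**
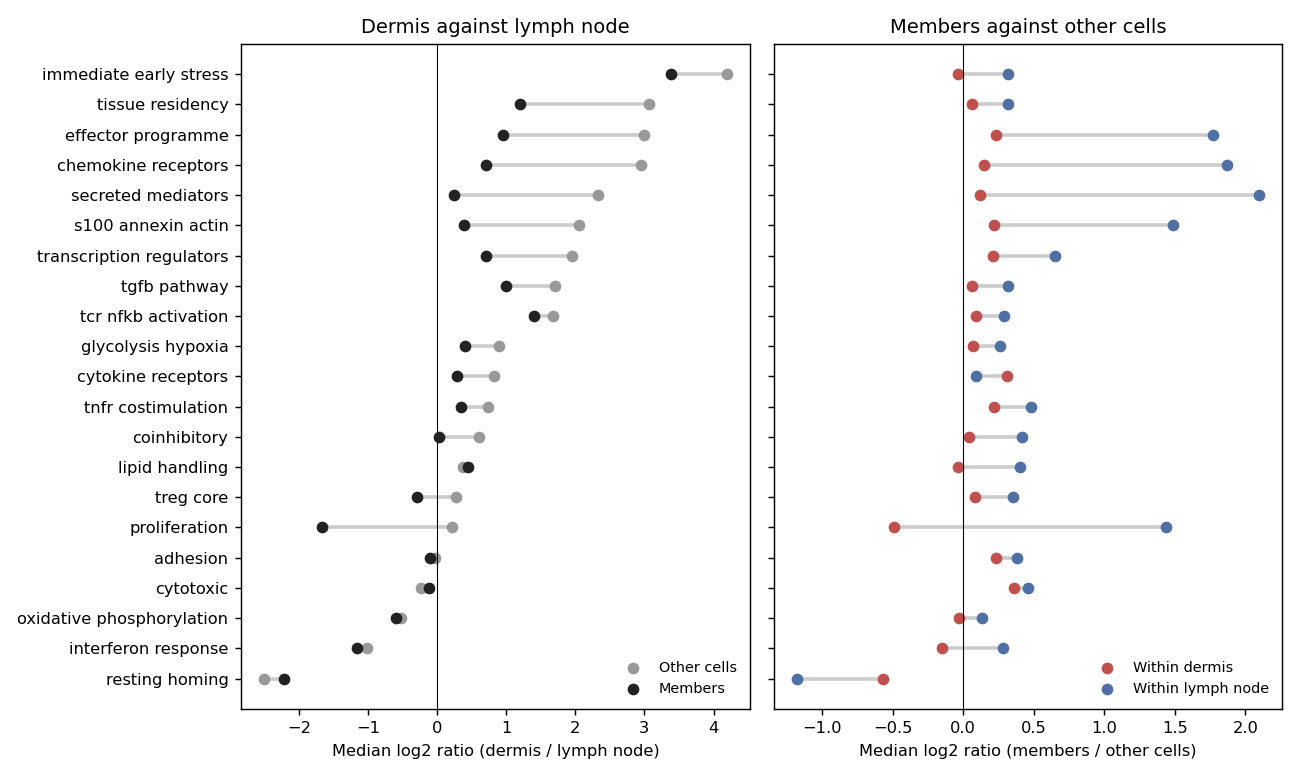
Median log2 ratio of each of 21 gene lists (x axis) for dermis against lymph node in members and in other cells (left), and for members against other cells within each library (right), over list genes with at least 10 CPM in a group compared. Effector, chemokine receptor and secreted mediator lists lie near 0 or 1 for members and above 2 for other cells, and the immediate early and stress list lies above 3 for both.

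The single genes with the widest ratios between the members were taken by rank. The 10 highest in dermal members were Fosb, Cxcl2, Hspa1b, Sik1, Hspa1a, Klf4, Ier5l, Fos, Lars2 and Atf3. Cxcl2, a neutrophil chemokine, was at 169 CPM against 0.80 CPM, and 5 dermal cells held 33.4% of its UMIs in dermal members. Sik1, a kinase induced by cAMP, was at 185 against 1.20 CPM. Lars2 is uncertain because its sequence shares reads with ribosomal RNA. Among the 10 lowest were Il2, Izumo1r, Wdr89, Evl, Serpina3g, Bcl2, Ifit1, Gimap4 and Penk. Il2, a cytokine that Tregs do not usually make, was at 1.35 CPM in dermal members and 61.3 CPM in lymph node members (45.5-fold lower, 19.1 to 142), with 43.0 CPM in other lymph node cells. Penk, which encodes enkephalin, was at 57.0 CPM in lymph node members, but 5 cells held 69.9% of those UMIs, and its order turned among members with Klrg1 and Gzmb and among those with Il1rl1 and S100a4. Wdr89 is uncertain because it has near-identical pseudogenes.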

How the data were processed

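The authors deposited raw counts, that is, UMI counts per gene and cell barcode, for 1 dermal, 1 lymph node and 1 epidermal library. Per the submitters' processing notes, Cell Ranger mapped the reads to mm10. Its version was 4.0.0 for dermis per the file headers, and for the lymph node run no version is stated there. The epidermal library served only for the count of all cells and of shared barcodes. The gate asked for 500 UMIs or more, 300 genes or more, no more than 10% mitochondrial UMIs and 2 or more UMIs over Cd3d, Cd3e, Cd3g and Cd4. This left 838 of 1077 dermal and 9305 of 9419 lymph node barcodes, of which 23 and 89 were below the 1500 UMIs of the thinning and were left out.

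All UMIs of the cells of a group were summed per gene and given as CPM. Ratios have exact binomial intervals, levels exact Poisson intervals and shares exact Clopper-Pearson intervals. PCR copies are collapsed by UMIs, but the intervals cover counting error only. A ratio against 0 used a floor of 3 counts in the group. The range of totals was 792661 UMIs (other dermal cells) to 30051507 UMIs (other lymph node cells). List medians took members of a list with at least 10 CPM in a group compared. The members, 21 functional gene lists and marker lists were chosen with earlier results of these data known.

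Genes named were the rule markers, a fixed set of 20, the 10 highest and 10 lowest ratios at 50 CPM, up to 4 genes per list, and the 8 highest and lowest within each library. Ranks left out mitochondrial, ribosomal, predicted, receptor segment, sex-linked, haemoglobin, keratin and other-type genes. Some genes that meet the rule are not reported here. Genes named beside these as examples of list counts were picked after their values were seen. Scrublet marked 12 dermal cells, all of them members, and 0 lymph node cells, too few to rely on it there. Doublets stayed in. Alternatives covered the rule, the thinning, cell filters, scaling and the CPM limits. The calculation was tested on simulated data. Tools were Python 3.11.15, numpy 2.4.6, pandas 2.3.3, scipy 1.17.1, scanpy 1.11.5 and matplotlib 3.10.9.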

Additional observations from a re-analysis of the deposited data

Results flagged for a closer look

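In 3 genes the members differed from the other cells of their library in opposite directions in the 2 tissues, and the difference was not tested. The log2 ratio of members against other cells was -1.91 in dermis and 2.32 in lymph node for Rrm2, a subunit of ribonucleotide reductase. It was -1.55 in dermis and 1.28 in lymph node for Serpina3g, a serine protease inhibitor. For Stmn1 it was -1.54 in dermis and 1.78 in lymph node. The UMIs were few and uneven: in dermal members Rrm2 had 20 UMIs and Serpina3g 16, and 5 cells held 52.8% of the 108 UMIs of Stmn1.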

How the results depend on the processing

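No paired analysis was possible because each tissue had 1 library and the labels give no replicate numbers. The share of cells that are members follows from the rule. In dermis (81.6%) it was 69.9% with thinning to 1000 UMIs, 88.4% with 2000 UMIs, 96.4% without thinning and 44.8% with at least 3 markers. Without Klrg1 it was 76.1%, without Gzmb 77.3%, without Ccr2 70.7%, without Itgae 67.4% and without S100a4 45.6%. In lymph node (6.46%) the same settings gave 4.74%, 7.47%, 10.6% and 2.67%, and 5.85% without Gzmb, 5.07% without Ccr2, 4.85% without Itgae, 3.17% without S100a4 and 7.81% among cells with a Foxp3 UMI.

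Counts of genes moved with the CPM limit, since fewer or more genes were then tested. Between members, the genes higher in dermis (574) became 977 at 20 CPM, 329 at 100 CPM and 2156 with no filter, and those lower (343) became 658, 177 and 1626. The lower genes also became 609 without mitochondrial and ribosomal protein genes in the totals. They were 647 among members with Klrg1 and Gzmb, 586 with Klrg1 and Ccr2, 545 with Klrg1 and Itgae and 524 with Il1rl1 and S100a4, groups of as few as 37 cells. Between other cells, the higher genes (755) became 1391, 390 and 4601 and the lower ones (295) 623, 161 and 1321 under the same 3 limits. The lower ones were 491 with median-of-ratios scaling, 521 with TMM and 778 with the reduced totals.

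Within dermis, the genes higher in members (9) were 2 in the third thinning draw, 61 with thinned counts, 61 at 20 CPM, 1 at 100 CPM and 742 for at least 3 markers against none, which compares with 9 cells. The lower ones (4) were 15 and 10 in the second and the fourth draw, 42 with thinned counts, 50 at 20 CPM, 1 at 100 CPM and 311 for at least 3 markers against none. Within lymph node, the higher genes (150) were 243 for at least 3 markers against none, 99 with median-of-ratios, 99 with TMM, 307 at 20 CPM and 75 at 100 CPM, and the lower ones (27) were 42, 47, 47, 42 and 12. Except for these construction effects the cause was not tested.

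Of 86 named genes counted as different between members, 82 kept their direction in every alternative. Ccr10 turned to -0.50 and Penk to 1.17 among members with Klrg1 and Gzmb, Penk to 0.46 with Il1rl1 and S100a4, Ppa1 to 0.0864 with Klrg1 and Ccr2, and Rrm2 to 0.67 with Klrg1 and Itgae, all on the log2 scale. Leaving out dermal barcodes also found in the epidermal library, an alternative chosen after seeing the data, gave 563 higher and 345 lower genes between members. No library could be left out, and depth limits low genes of the other dermal cells most.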

Other observations

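Il2 UMIs were spread over many lymph node cells. At full depth 128 of 595 lymph node members and 1179 of 8621 other lymph node cells held an Il2 UMI, with at most 3 and 5 UMIs in a cell, and 13 of the 128 and 103 of the 1179 also held a Foxp3 UMI. In dermis 5 of 665 members and 0 of 150 other cells held an Il2 UMI. A Foxp3 UMI was held by 52 of the 595 lymph node members, fewer than held Il2, and by 341 of the 665 dermal members.

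The 9 dermal cells with no rule marker carried resting-cell genes. Ccr7 was at 425 CPM (278 to 623) in them and at 47.9 CPM in dermal cells with 1 marker and Tcf7 at 65.4 CPM against 2.73 CPM. Icos was at 392 CPM against 1265 CPM. These values rest on 9 cells, with 4 UMIs of Tcf7.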
